A study of Danio rerio with 11 samples.

Results

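Cytosolic ribosomal proteins were described here through 82 of the 16536 genes measured in zebrafish brain RNA: the genes whose symbol in the deposited table begins with rpl or rps followed by a digit or a p, leaving out the rps6k kinases. Of these, 48 carry rpl symbols (large subunit) and 34 carry rps symbols (small subunit), on 81 distinct symbols because rpl37 stands on 2 gene IDs. The choice used names alone and no measured value. The brains came from adults aged about 8 months on the TLF x AB strain, all with the mpeg1-GFP reporter, which labels macrophages and microglia, in each of 4 genotypes. There were 3 libraries of csf1ra-/- fish (single mutant), 3 of csf1ra-/-;b+/- fish (csf1rb heterozygote), 3 of csf1ra-/-;b-/- fish (double mutant) and 2 of wild-type control fish. Zebrafish have this pair of genes for the CSF1 receptor, on which microglia and other macrophages depend. Each library is whole-brain RNA, so a lower level can mean fewer cells of a type or less RNA per cell, and these cannot be told apart. The labels do not say whether replicates are separate fish, and the p-values below therefore reflect only how these libraries spread, which may be technical.

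Ribosomes translate all mRNA of the cytosol, and each is built of a large (60S) and a small (40S) subunit in which ribosomal RNA is bound by proteins that are needed in equal numbers. Vertebrate ribosomal protein mRNAs begin with a terminal oligopyrimidine tract, through which the kinase mTOR and the RNA-binding protein LARP1 set their translation together. In humans, loss of 1 copy of several of these genes causes Diamond-Blackfan anaemia, and in zebrafish heterozygous loss of many of them leads to nerve sheath tumours. In brain studies they are often taken as reference genes for normalisation.

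Depth was 12799766 to 15254244 reads per library, and 1 CPM (read per 1e6 reads after the authors' scaling) stood for 12.3 to 15.7 reads. The targeted gene csf1ra was lower in all 9 mutant libraries than in both controls, at 0.952 to 5.10 CPM in single mutants, 0.584 to 0.976 in csf1rb heterozygotes, 0 to 0.602 in double mutants and 7.33 and 9.66 in control. csf1rb was at 8.42 to 14.4 CPM in single mutants, 1.60 to 3.83 in csf1rb heterozygotes, 1.97 to 2.52 in double mutants and 13.6 and 21.6 in control. Neuron markers summed to 10908 to 13404 CPM in every library, with 16 of 16 detected. All 82 genes were well covered: their means over the 11 libraries ran from 13.6 to 644 CPM with a median of 240.3, 76 of them averaged at least 100 CPM, and the fewest reads of any of them in a library were 152. Every gene of the table exceeded 1 CPM in at least 3 libraries, a limit that no member was near.

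The ribosomal protein genes moved as a block from library to library, and in 2 of the 4 genotypes, single mutants and csf1rb heterozygotes, the libraries lay further apart than the genotypes' means. Their summed level was 18698, 24708 and 22165 CPM in single mutant replicates 1 to 3. It was 18095, 23908 and 20768 CPM in the csf1rb heterozygotes, 20685, 22060.4 and 20897 CPM in the double mutants, and 18787 and 18969.8 CPM in control. The lowest libraries of the single mutants and csf1rb heterozygotes were below both controls, whereas the 3 double mutants were all above both controls. The means were 21857 ± 3017 CPM in single mutants, 20924 ± 2909.6 in csf1rb heterozygotes, 21214 ± 741 in double mutants (SD, n = 3 each) and 18879 ± 129 in control (SD, n = 2). Relative to control these means were 1.16, 1.11 and 1.12 times as high in single mutants, csf1rb heterozygotes and double mutants. As a share of all reads, the 82 genes took 1.80% to 2.44% in single mutants, 1.85% to 2.36% in csf1rb heterozygotes, 2.14% to 2.18% in double mutants and 1.84% to 1.87% in control.

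**Figure D1:**
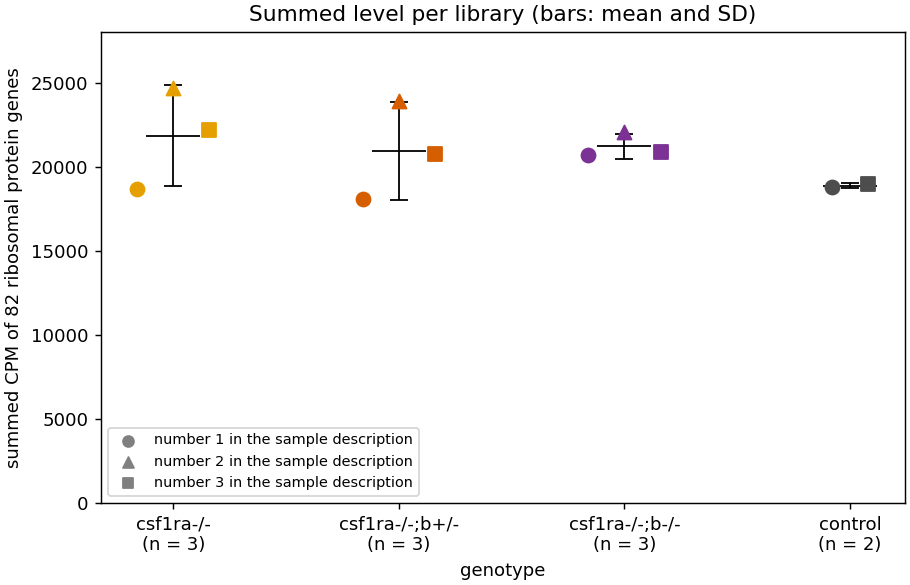
Summed level of the 82 ribosomal protein genes in CPM for each of 11 brain libraries, by genotype, with the mean and SD of each genotype as horizontal and vertical bars. Marker shapes give the number in the sample description: the 3 libraries numbered 2 lie at 22060.4 to 24708 CPM, and no control carries that number.

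Nearly all members shared this pattern. The highest value over the 11 libraries was in single mutant replicate 2 for 58 of the 82 genes and in csf1rb heterozygote replicate 2 for 19. The lowest was in csf1rb heterozygote replicate 1 for 39 and in single mutant replicate 1 for 20, in control replicate 2 for 12 and in control replicate 1 for 9. On the log2(CPM + 1) scale, the median pairwise correlation over the 11 libraries was 0.853, 98.2% of the 3321 pairs were above 0, and 79.0% of the members' variance lay on 1 axis. These correlations share the libraries and their scaling and are a description only. rplp0 followed the median of the members closely (r = 0.989). The 4 members with r under 0.5 were rps19bp1 (-0.098), rps8b (0.161), rpl7l1 (0.271) and rplp2l (0.470). Within genotypes the median SD of a member was 0.163 on the log2 scale, against 0.127 for the 2058 other genes that averaged at least 100 CPM. Set against the median member of the same library, the members' median SD was 0.0517.

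**Figure D2:**
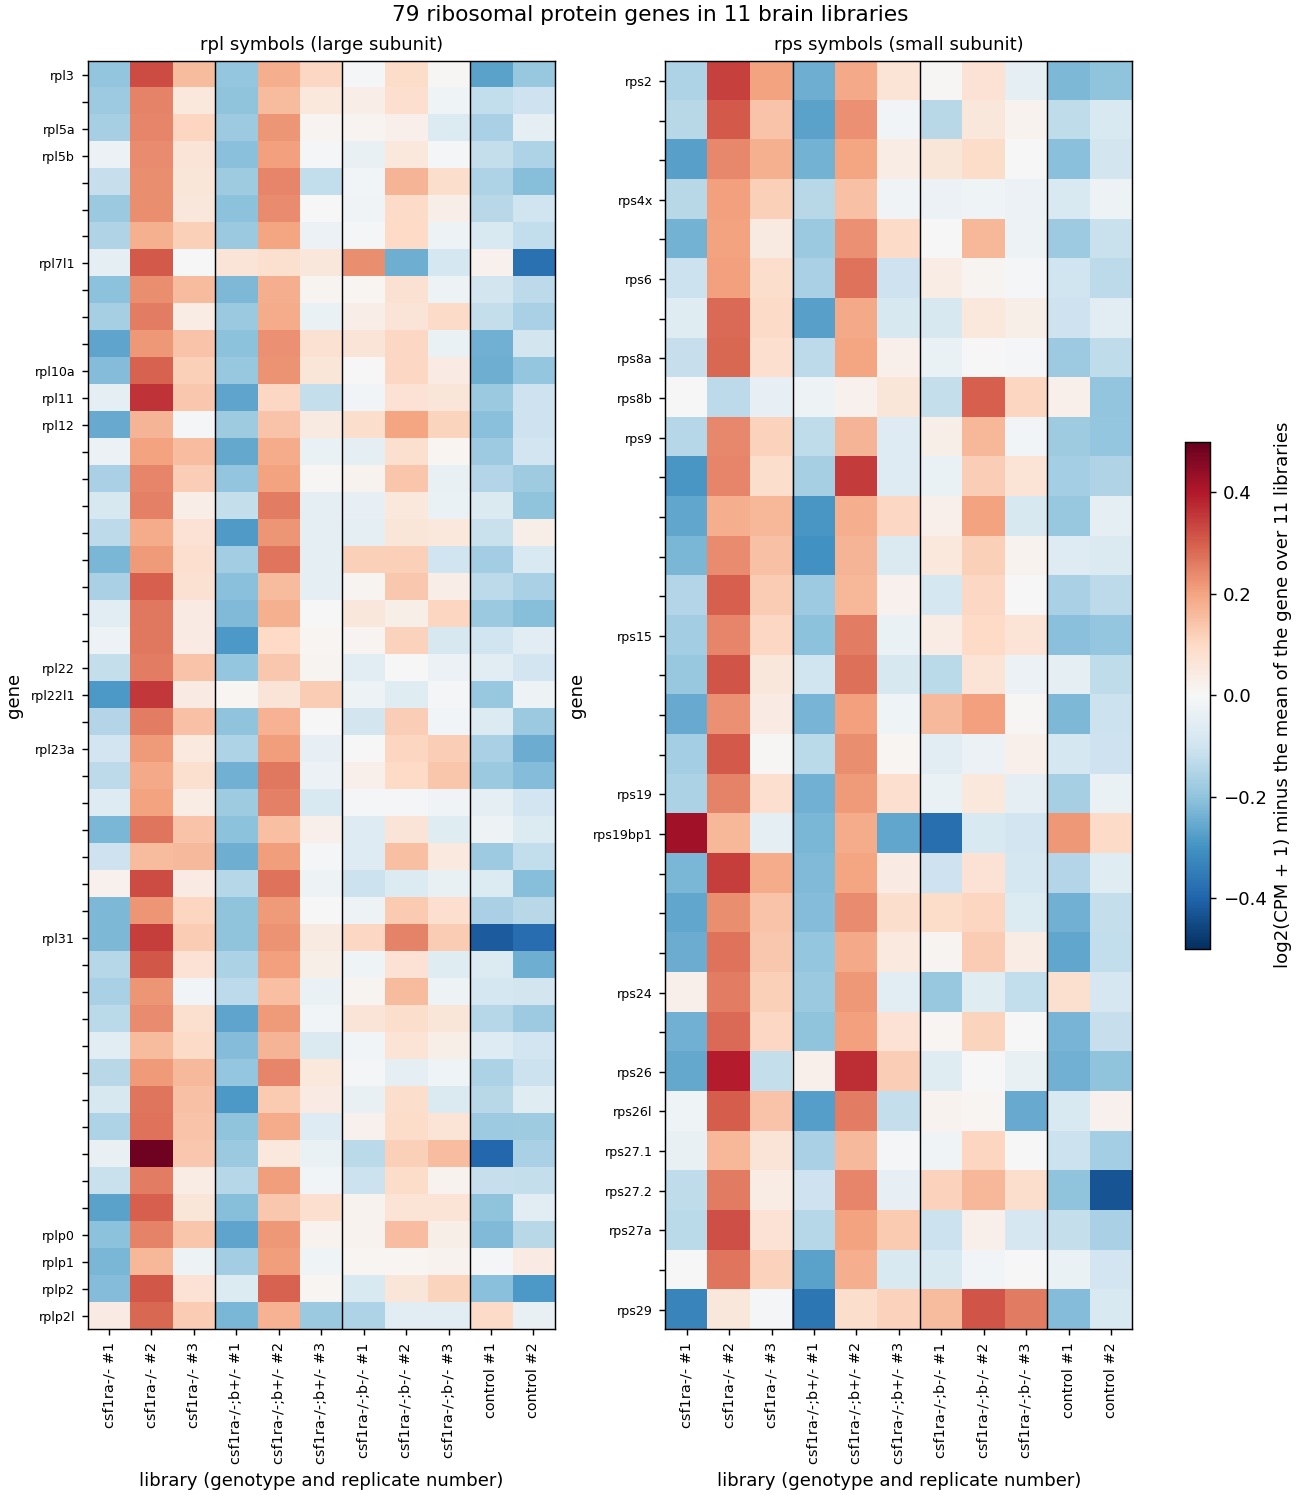
Level of each of 79 of the 82 genes (rows, large subunit left and small subunit right) in each of 11 libraries (columns) as log2(CPM + 1) minus the gene's mean over all libraries, from blue (lower) to red (higher), with labels for most genes described in the text. Replicate 2 of the single mutants and csf1rb heterozygotes is red in nearly every row and replicate 1 of both is blue, and rps19bp1, rps8b and rpl7l1 break the pattern.

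Large and small subunit genes kept a nearly fixed proportion. The summed level of rpl genes over that of rps genes was 1.67 to 1.69 in single mutants, 1.67 in all 3 csf1rb heterozygotes, 1.70 to 1.71 in double mutants and 1.66 and 1.68 in control. The double mutants stood slightly above the other libraries in this ratio, which was not tested.

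The sample descriptions number the libraries too, and control replicate 2 of the titles bears the number 3 there. By description number, the summed level was 22060.4 to 24708 CPM in the 3 libraries numbered 2, 18095 to 20685 in the 4 numbered 1 and 18969.8 to 22165 in the 4 numbered 3. No control is numbered 2, so genotype and number are partly confounded in every comparison with control. Within number 1, the summed level over that of its control was 0.995 in the single mutant, 0.963 in the csf1rb heterozygote and 1.101 in the double mutant. Within number 3 the ratios were 1.17, 1.09 and 1.102 in the same order. So in the double mutants the excess over control was alike within both numbers. There 71 and 68 of 82 genes were above the control of the same number (52.6% and 54.2% of all genes). In single mutants it was 36 and 80 of 82 genes (47.6% and 54.4% of all genes). In csf1rb heterozygotes it was 22 and 73 of 82 (50.6% and 54.1% of all genes). Each of these counts sets 1 library against 1 other, for members that move together. The labels do not say what the numbers stand for.

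Loss of csf1ra alone is seen in single mutants set against control. No ribosomal protein gene passed limma's test at an adjusted p under 0.05, against 0.472% of all genes. Before adjustment 6 of the 82 had p under 0.05, against 11.4% of all genes. The other tools called 0 members as well, with 8 at an unadjusted p under 0.05 in edgeR and 8 in DESeq2. The members' median log2 fold change was nevertheless 0.20, against 0.01 for all genes, with 81 of 82 above 0 (50.9% of all genes). The median was -0.04 over the 2058 other genes of at least 100 CPM. Without single mutant replicate 2 the median was 0.10, and without replicate 1 it was 0.31. In 23 members the 3 mutant values lay above both controls, as in 15.6% of all genes, and in 0 they lay below (13.7%).

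The comparison of csf1rb heterozygotes with control adds the loss of 1 csf1rb copy. Again 0 members passed the test in limma (background 0.671%), 4 had an unadjusted p under 0.05 (15.6% of all genes), and edgeR and DESeq2 called 0, with 4 each before adjustment. The median log2 fold change was 0.14, against 0.00 for all genes, and 76 of 82 genes were above 0 (50.2% of all genes). It was 0.04 without csf1rb heterozygote replicate 2 and 0.24 without replicate 1. The mutant values lay above both controls in 9 members (17.8% of all genes) and below in 0 (16.6%).

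The comparison of double mutants with control asks about brains with both receptors mutated. Here too 0 members passed in limma (background 1.16%), 5 had an unadjusted p under 0.05 (16.1%), and edgeR called 0 with 5 before adjustment. DESeq2 called 1 member, rpl31, with 5 before adjustment. The median log2 fold change was 0.15, against 0.01 for all genes, with 76 of 82 above 0 (52.0%). With each library left out in turn it stayed between 0.13 and 0.18. The double mutant values did not overlap with control and were higher in 57 members (19.9% of all genes), and were lower in 2, rplp2l and rps19bp1 (16.6% of all genes). In the single mutants and csf1rb heterozygotes 23 and 9 members were higher without overlap. The 3 double mutant libraries also lay closer together, with an SD of 741 CPM in summed level against 3017 and 2909.6. Whether that spread accounts for the larger count was not tested, nor whether the genotypes differ in this count. All 3 comparisons use the same 2 control libraries.

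**Figure D3:**
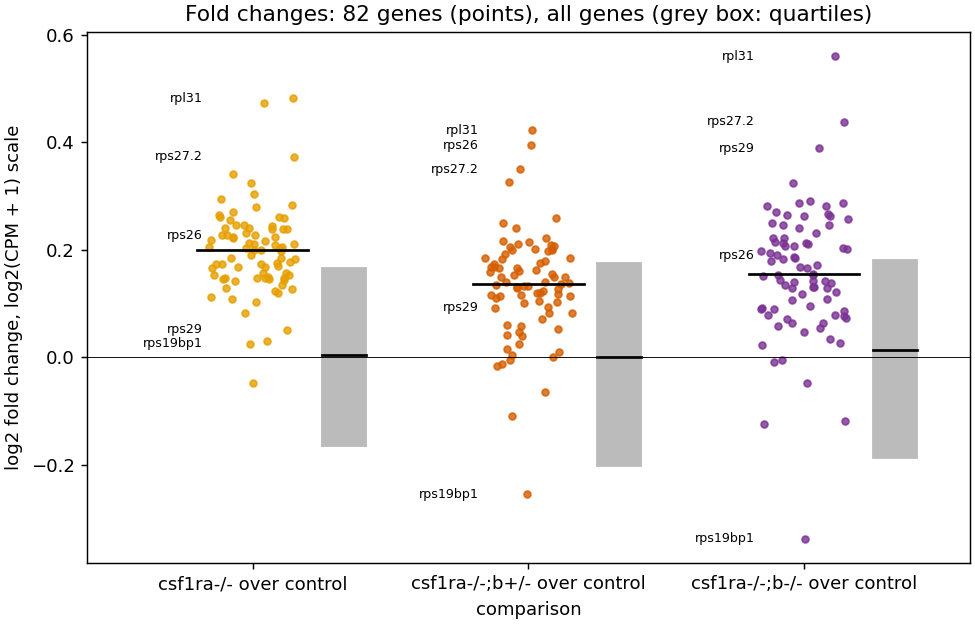
Log2 fold change over control on the log2(CPM + 1) scale for the 82 genes (points; black line, median) in the 3 mutant genotypes, beside the lower to upper quartile of all 16536 genes (grey box; black line, median). The members' medians lie at 0.20, 0.14 and 0.15, and none of the points passed limma's test.

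The precision limits what could be seen. The median standard error of a member's log2 fold change over control was 0.136, so that an unadjusted 95% interval reached 0.30 to either side. A call needs more than that: rpl31 at 0.56 and rps27.2 at 0.44 in double mutants did not pass. The authors' deposited table likewise gives 0 members with an FDR under 0.05 in each of its 6 comparisons. The lowest FDR of a member in the authors' deposited table is 0.123, for rpl31 in double mutants against control.

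rpl31 encodes a large subunit protein beside the exit of the tunnel through which the new peptide leaves the ribosome. On the log2(CPM + 1) scale it was the member farthest from control in all 3 mutants. In the authors' deposited log2 fold changes the rpl37 ID ENSDARG00000076360 was farther in single mutants, at 0.52 against 0.50 for rpl31. rpl31 had 158, 234 and 202 CPM in single mutants, 160.2, 216 and 191 CPM in csf1rb heterozygotes, 198, 219 and 202 CPM in double mutants, and 138 and 141 CPM in control. All 9 mutant libraries lay above both controls. Its log2 fold change was 0.48 in single mutants (SE 0.157, adjusted p = 0.265 in limma), 0.42 in csf1rb heterozygotes (adjusted p = 0.234) and 0.56 in double mutants (adjusted p = 0.118). The double mutant difference passed the threshold in DESeq2 (adjusted p = 0.0308), in a limma fit of these 2 groups only (adjusted p = 0.0432) and with a block by the titles' replicate number (adjusted p = 0.0429). With a library left out its adjusted p ran from 0.212 to 0.399.

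In total 4 members were higher in all 9 mutant libraries than in both controls (5.91% of all genes), and 0 were lower in all 9 (5.41%). Besides rpl31 these were rpl23a, which docks the signal recognition particle at the tunnel exit, and rps27.2 and rps9 of the small subunit. rps27.2, 1 of a pair of copies for the zinc-binding protein of the small subunit, had 266, 349 and 298 CPM in single mutants, 270.5, 345 and 283 in csf1rb heterozygotes, 315, 326 and 309 in double mutants and 253 and 215 in control. The 2 controls differed more from each other than control replicate 1 did from the lowest mutants. rpl23a had 288, 357 and 318 CPM in single mutants, 277, 356 and 299 in csf1rb heterozygotes, 308, 332 and 335 in double mutants and 275 and 259 in control, so that its lowest mutant was close to the higher control. The log2 fold changes of rps27.2 were 0.37, 0.35 and 0.44 in single mutants, csf1rb heterozygotes and double mutants (SE 0.133, adjusted p = 0.314, 0.239 and 0.146 in limma).

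The stalk of the large subunit, which recruits elongation factors, is built of rplp0 with dimers of rplp1 and rplp2. rplp0, the member with the most reads, had 555, 759 and 704 CPM in single mutants, 533, 742 and 647 in csf1rb heterozygotes, 647, 711 and 653 in double mutants and 549 and 581 in control. rplp1 had 291, 383 and 335 CPM in single mutants, 303, 395 and 336 in csf1rb heterozygotes, 344, 344 and 345 in double mutants and 339.5 and 351 in control. Both moved with the family median from library to library (r = 0.989 for rplp0 and 0.795 for rplp1). In the means of all 3 mutants rplp1 nevertheless stayed near control, with log2 fold changes of -0.05, -0.01 and -0.01 (SE 0.127, adjusted p from 0.911 to 0.990 in limma). Its values in csf1rb heterozygotes and double mutants were above 0 with no scaling factor. rpl12, which lies at the base of the stalk, had a log2 fold change of 0.29 in double mutants (SE 0.128, adjusted p = 0.299 in limma), with 377, 407 and 383 CPM against 307 and 330.0 CPM in control.

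Over all 82 genes the log2 fold changes ran from -0.05 to 0.48 in single mutants, from -0.26 to 0.42 in csf1rb heterozygotes and from -0.34 to 0.56 in double mutants, and other members of known role lay inside these ranges. rpl3, next to the peptidyl transferase centre, had 491, 707 and 629 CPM in single mutants, 493, 639 and 605 in csf1rb heterozygotes, 559, 600.1 and 566 in double mutants and 468 and 494 in control. rpl5a, rpl5b and rpl11 encode the proteins that join the 5S RNA and, when unassembled, bind the p53 inhibitor Mdm2 in mammals. rpl11 had 178, 236 and 202 CPM in single mutants, 153, 197 and 169 in csf1rb heterozygotes, 182, 193 and 192 in double mutants and 161 and 171 in control. Its log2 fold change was 0.30 in single mutants (SE 0.128, adjusted p = 0.418 in limma), and 0.05 and 0.19 in csf1rb heterozygotes and double mutants.

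Among small subunit members, rps29 had its highest levels in double mutants. This zinc-binding protein had 105, 137 and 131 CPM in single mutants, 102, 140.5 and 143 in csf1rb heterozygotes, 147, 164 and 158 in double mutants and 114 and 125 in control. The 3 double mutant values were the highest of the 11 libraries. The log2 difference of double from control was 0.39 (SE 0.154, adjusted p = 0.247 in limma) and of double from single mutants 0.34 (SE 0.138, adjusted p = 0.365). rps24, mutated in some Diamond-Blackfan patients, ran the other way, with 286, 336 and 305 CPM in single mutants, 247, 327 and 271 in csf1rb heterozygotes, 246, 269 and 258 in double mutants and 298 and 265 in control. Its log2 difference of double from single mutants was -0.26 (SE 0.108, adjusted p = 0.384). rps19, whose loss is the most common cause of Diamond-Blackfan anaemia in humans, had 173, 229 and 205 CPM in single mutants, 163, 224 and 205 in csf1rb heterozygotes, 189, 200.3 and 187 in double mutants and 172 and 189 in control. rps2, near the entry of the mRNA channel, had 392, 553 and 502 CPM in single mutants, 368, 498 and 457 in csf1rb heterozygotes, 438, 459 and 422 in double mutants and 374 and 379 in control. On the log2 scale it differed from control by 0.34 in single mutants (SE 0.149, adjusted p = 0.419 in limma) and 0.22 in each of the other mutants. rps6, the target of S6 kinase downstream of mTOR, had log2 fold changes of 0.18, 0.12 and 0.13 (adjusted p from 0.632 to 0.693 in limma).

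The ubiquitin fusion gene rps27a, which yields ubiquitin and a small subunit protein, had 266, 366 and 308 CPM in single mutants, 265, 337 and 321 in csf1rb heterozygotes, 271, 298 and 276 in double mutants and 269 and 261 in control. It followed the library pattern of the family.

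Between mutants the median differences were smaller than those from control. In csf1rb heterozygotes against single mutants 0 members passed limma's test (background 0.187%) and 0 had an unadjusted p under 0.05 (6.28% of all genes). edgeR called 0, also before adjustment, and DESeq2 called 0 with 1 before adjustment. The median log2 difference was -0.06, with 11 of 82 above 0 (48.2% of all genes), and with each library left out it ran from -0.17 without single mutant replicate 1 to 0.04 without csf1rb heterozygote replicate 1, being 0.03 without single mutant replicate 2 and -0.15 without csf1rb heterozygote replicate 2. In double against single mutants 0 passed (background 0.943%), 3 had an unadjusted p under 0.05 (11.3%), and edgeR and DESeq2 called 0, with 3 and 4 before adjustment. The median was -0.03, with 28 of 82 above 0 (50.4% of all genes), and it ran from -0.14 without single mutant replicate 1 to 0.06 without single mutant replicate 2. In double against csf1rb heterozygotes 0 passed (background 0.0847%) and 0 had an unadjusted p under 0.05 (5.22%), as in edgeR and DESeq2. The median was 0.03, with 56 of 82 above 0 (51.5%), and it ran from -0.08 without csf1rb heterozygote replicate 1 to 0.12 without csf1rb heterozygote replicate 2, being -0.0095 without double mutant replicate 2.

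Once the shared movement was taken out, members differed from each other by small amounts. Each level was set against the median of the 82 genes in its library, a measure chosen after the data were seen. On this scale rpl31 was at -0.07, 0.09 and 0.04 in single mutants, 0.00, 0.02 and 0.05 in csf1rb heterozygotes, 0.11, 0.16 and 0.13 in double mutants, and -0.27 in both controls. It was above both controls in all 9 mutants, as were rpl3, rps2, rpl10a and rps15, while rplp1 and rps4x were below both controls in all 9. Of all genes on the same scale, 1.28% were above both controls in all 9 mutants and 8.9% below. The family median was higher in most mutant libraries than in control, so this scale lowers other genes there by construction. These shares are therefore no like-for-like background for the members, and the same holds for the fit on this scale below. Without it the shares of all genes were 5.91% above and 5.41% below. rps29 was at 0.17, 0.23 and 0.26 in double mutants, against -0.06 and 0.04 in control, and rps24 was at -0.18, -0.15 and -0.12 in double mutants, against 0.23 and 0.03 in control. rps26, at the exit of the mRNA channel, was at 0.23, 0.17 and 0.12 in csf1rb heterozygotes, against -0.09 in both controls. In a limma fit on levels scaled this way, 0 members passed in any of the 6 comparisons, against 0.145%, 0.218% and 0.562% of all genes in single mutants, csf1rb heterozygotes and double mutants against control and 0.109%, 0.423% and 0.0605% between mutants. The counts of members with an unadjusted p under 0.05 were 2, 3 and 7 in single mutants, csf1rb heterozygotes and double mutants against control, and 1, 5 and 3 for csf1rb heterozygotes against single mutants, double against single mutants and double mutants against csf1rb heterozygotes. The share of all genes under that unadjusted threshold was not counted for this fit, so these counts have no background. The lowest adjusted p of that fit was 0.122, again for rpl31 in double mutants against control.

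**Figure D4:**
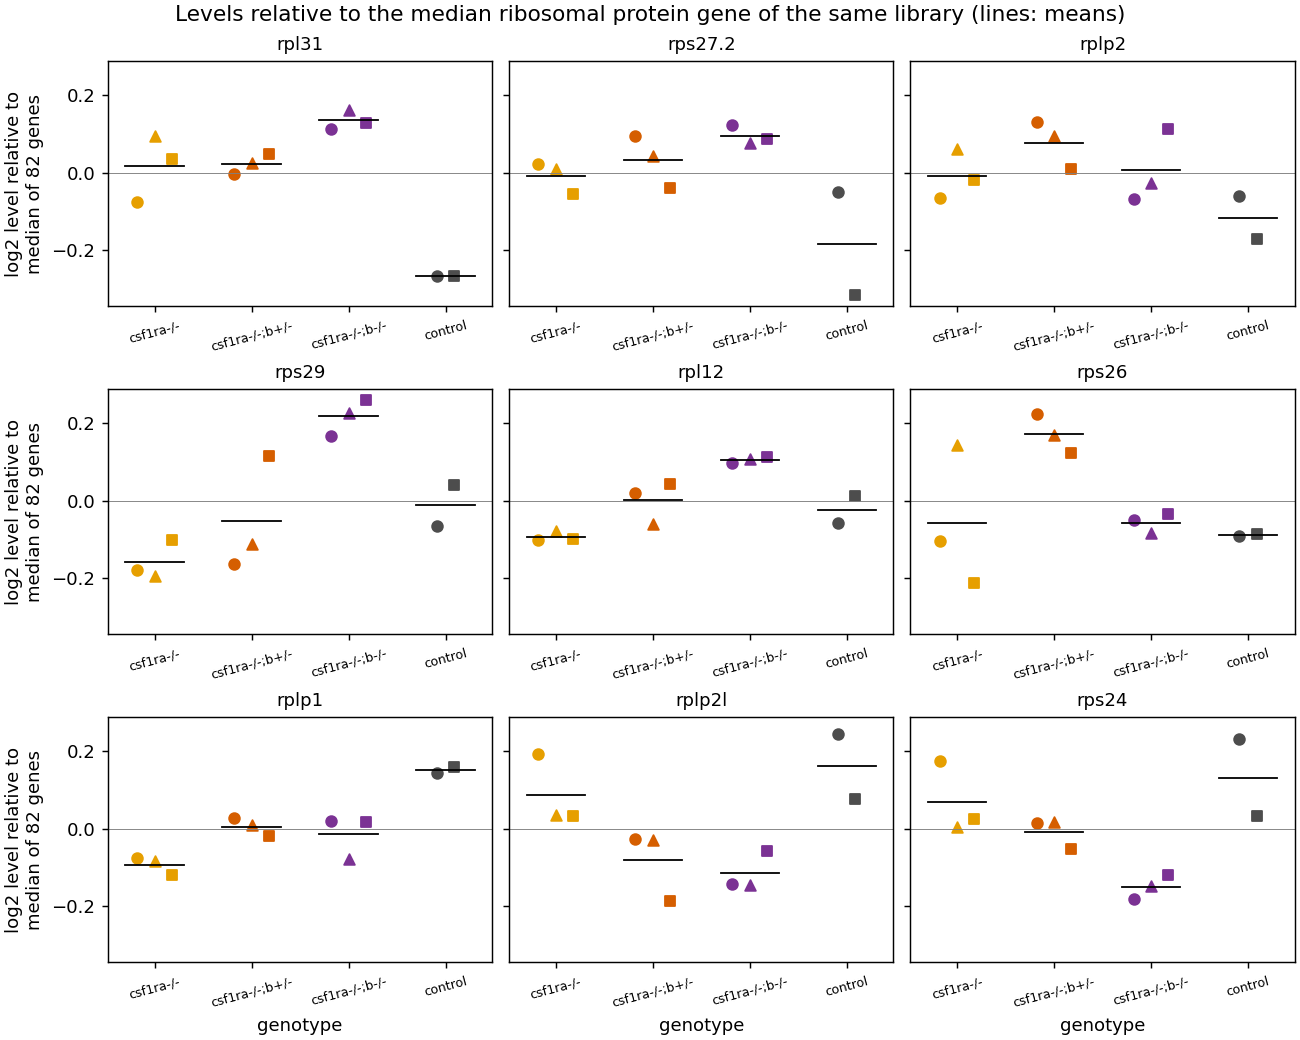
Log2 level of 9 members relative to the median of the 82 genes in the same library, by genotype, 1 marker per library (shape: number in the sample description, as circle 1, triangle 2 and square 3) and a line at each genotype's mean. The 9 mutant libraries of rpl31 lie at -0.07 to 0.16 and both controls at -0.27, and rps29 is highest in the 3 double mutants.

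Zebrafish keep several ribosomal protein genes in pairs, and the ratio of both copies in a library does not depend on scaling. It is free of the shared movement only where both copies follow the family equally, which rplp2l (r = 0.470) and rps8b (r = 0.161) did not. Close copies can share reads as short as 50 nucleotides, so these ratios are uncertain. The copies of the stalk protein rplp2 gave the clearest pattern. rplp2l had 137, 162 and 145 CPM in single mutants, 113, 149.8 and 116 in csf1rb heterozygotes, 119, 127 and 127 in double mutants and 142 and 129 in control. rplp2 had 145, 209.8 and 178 CPM in single mutants, 161, 207 and 170.0 in csf1rb heterozygotes, 160.1, 176 and 183 in double mutants and 146 and 138 in control. Their ratio, rplp2l over rplp2, was 0.942, 0.772 and 0.814 in single mutants, 0.703, 0.722 and 0.685 in csf1rb heterozygotes, 0.745, 0.723 and 0.698 in double mutants and 0.971 and 0.935 in control. The csf1rb heterozygotes and double mutants all lay below the other libraries, and single mutant replicate 1 lay between the 2 controls. Neither copy passed limma's test by itself (adjusted p from 0.320 to 0.734 against control).

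rps26 had 87.1, 137 and 95.8 CPM in single mutants, 106, 135 and 114 in csf1rb heterozygotes, 99.9, 104 and 102 in double mutants and 88.0 and 90.5 in control, with a log2 fold change of 0.39 in csf1rb heterozygotes (SE 0.165, adjusted p = 0.282 in limma). The ratio of rps26l to rps26 was 1.22, 0.971 and 1.24 in single mutants, 0.840, 0.957 and 0.874 in csf1rb heterozygotes, 1.09, 1.041 and 0.889 in double mutants and 1.16 and 1.21 in control. The csf1rb heterozygotes and double mutants were again below both controls, and single mutants spanned them. The ratio of rps27.2 to rps27.1 was 1.32, 1.51 and 1.38 in single mutants, 1.47, 1.49 and 1.38 in csf1rb heterozygotes, 1.545, 1.47 and 1.499 in double mutants and 1.32 and 1.17 in control. There the lowest single mutant was level with the higher control at 1.32, and the mutant genotypes overlapped each other. In the other pairs every mutant genotype overlapped with control. rpl5b over rpl5a ran from 1.23 to 1.46 over the 11 libraries, rpl22l1 over rpl22 from 0.212 to 0.276, and rps8b over rps8a from 0.116 to 0.191. rps8b, at 51.6 to 73.2 CPM, had r = 0.161 with the family median while rps8a, at 338 to 467 CPM, followed it. None of these ratios was tested.

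**Figure D5:**
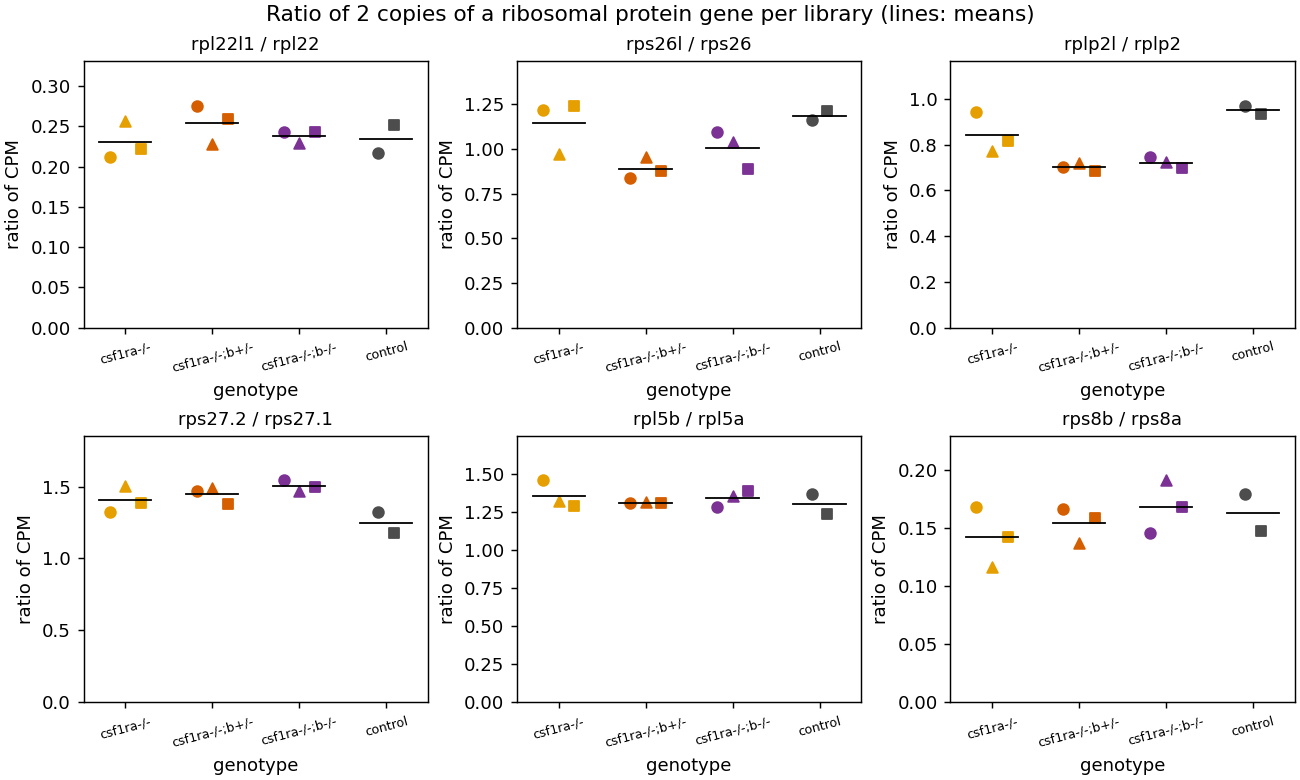
Ratio of CPM of the copies of a ribosomal protein gene in each library, by genotype, for 6 pairs, with marker shapes for the number in the sample description (circle 1, triangle 2, square 3) and a line at each genotype's mean. The ratio of rplp2l to rplp2 lies at 0.685 to 0.745 in csf1rb heterozygotes and double mutants, against 0.935 and 0.971 in control.

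A few genes at the edge of the family are no plain subunits. rps19bp1, a binding partner of rps19 and no ribosome subunit, was among the lowest members, with 26.0, 21.6 and 18.6 CPM in single mutants, 16.2, 22.0 and 15.8 in csf1rb heterozygotes, 14.5, 18.1 and 17.9 in double mutants and 22.4 and 20.5 in control. Its log2 fold change of -0.34 in double mutants (SE 0.180, adjusted p = 0.388 in limma) was the lowest of the 82. rpl7l1, a homologue of rpl7 that acts in ribosome assembly in other species, had 14.2 to 23.4 CPM, and the rpl37 ID ENSDARG00000076360, which the name table gives as COA1, had 9.99 to 19.2 CPM. Leaving out these 3, which averaged under 25 CPM, the medians over control were 0.20, 0.14 and 0.15 in single mutants, csf1rb heterozygotes and double mutants for the other 79.

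Ribosome proteins that the rule leaves out had the same sign as most of the family. Of 5 such genes, rpsa, gnb2l1 (the scaffold protein RACK1), faua and faub among them, 0 passed limma's test in any mutant and all 5 had positive log2 fold changes in all 3. Their medians were 0.14, 0.08 and 0.10 in single mutants, csf1rb heterozygotes and double mutants. rpsa, a small subunit protein, had 512, 699 and 589 CPM in single mutants, 496, 638 and 539.5 in csf1rb heterozygotes, 516, 554 and 534 in double mutants and 507 and 545 in control. The table also holds 5 IDs with a ribosomal protein symbol in capitals, which therefore fall outside the rule, RPL41, RPL37A and RPS27L among them. RPL41 had 223, 338 and 278 CPM in single mutants, 245, 331 and 266 in csf1rb heterozygotes, 307, 287 and 263 in double mutants and 255 and 319 in control.

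Genes that make or regulate ribosomes were set beside the family, in lists drawn up by function. Of 109 genes of ribosome assembly and RNA polymerase I, 0 passed limma's test in any mutant against control. Their median log2 fold changes were 0.17, 0.23 and 0.18, with 89, 89 and 86 above 0 (50.9%, 50.2% and 52.0% of all genes). The 2 controls differed here, with median log2 distances from each gene's own mean of -0.07 and -0.23. Of 73 mitochondrial ribosomal protein genes 0 passed, with medians of 0.06, 0.11 and 0.14. Of 60 translation initiation genes 0 passed, with medians of 0.09, 0.13 and 0.12, and of 16 elongation genes 0 passed, with medians of 0.01, 0.00 and 0.04. In the assembly, mitochondrial ribosome, initiation and elongation lists the libraries with the highest median were again replicate 2 of the single mutants and csf1rb heterozygotes.

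Of 41 genes of mTOR signalling and of the regulators of oligopyrimidine mRNAs, 1 passed, in double mutants. This was larp4ab, of a family of RNA-binding proteins, with 39.5, 32.2 and 36.0 CPM in single mutants, 32.0, 25.3 and 30.7 in csf1rb heterozygotes, 23.6, 25.4 and 26.3 in double mutants and 44.4 and 39.7 in control. Its log2 fold change in double mutants was -0.72 (SE 0.133, adjusted p = 0.0274 in limma), and all 9 mutant libraries were below both controls. mtor itself had log2 fold changes of -0.06, 0.01 and 0.12 (adjusted p from 0.538 to 0.958). Of 23 genes of the p53 response 0 passed in any mutant.

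Among assembly genes, the nucleolar GTPase gene gnl2 had 98.7, 91.3 and 96.0 CPM in csf1rb heterozygotes and 45.4, 25.2 and 113 CPM in double mutants, against 23.5, 26.0 and 22.8 CPM in single mutants and 23.7 and 21.6 CPM in control. Its log2 fold change of 2.03 in csf1rb heterozygotes did not pass (SE 0.421, adjusted p = 0.0611 in limma), and its 3 double mutant libraries lay far apart.

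Markers of microglia were lower in the mutants, and some other marker sums differed between the genotypes. Of 22 microglia and macrophage markers, limma called 1, 12 and 19 lower and 0 higher in single mutants, csf1rb heterozygotes and double mutants. The list includes csf1ra and csf1rb, the mutated genes themselves. The calls, medians and sums were not counted without these genes. Of all genes 0.472%, 0.671% and 1.16% were called. In each comparison 1 of the 22 had a log2 fold change above 0, and the medians were -0.80, -1.70 and -2.46. The markers' summed level was 519 to 736, 334 to 362 and 255 to 367 CPM in the same order, against 739.8 and 1203 CPM in control. Red cell markers summed to 465 to 786 CPM in single mutants, 294 to 448 in csf1rb heterozygotes, 349 to 508 in double mutants and 226 and 343 in control, with 0 of 10 called and 9 at an unadjusted p under 0.05 in single mutants. Immediate early genes summed to 2838 to 4975 CPM in single mutants, 2836 to 4285 in csf1rb heterozygotes, 2932 to 4172 in double mutants and 2169 and 3182 in control, with 1 of 19 called, junbb in double mutants. Log2 fold changes were above 0 in 19, 18 and 16 of the 19, with medians of 0.68, 0.46 and 0.33 in the same order. In limma 9, 3 and 1 of the 19 had an unadjusted p under 0.05 (11.4%, 15.6% and 16.1% of all genes). Oligodendrocyte markers summed to 7355 to 8367 CPM in single mutants, 8044 to 8956 in csf1rb heterozygotes, 6673 to 8369 in double mutants and 9861 and 11342 in control. The sums of all 9 mutants were thus below both controls, with 1 of 11 called (mbpa, lower in double mutants). Gene by gene the direction was mixed. Log2 fold changes were above 0 in 3, 8 and 5 of 11 genes in single mutants, csf1rb heterozygotes and double mutants. Their medians were -0.12, 0.04 and -0.14 in the same order. Skin and muscle markers also summed lower in all 9 mutants, at 38.0 to 104 CPM against 117.5 and 117.6 CPM in control, with 0 of 10 called. Here too the genes varied, with 5, 1 and 1 of 10 above 0 in single mutants, csf1rb heterozygotes and double mutants. The median log2 distance from each gene's own mean was -0.44 in control replicate 1 and 1.23 in control replicate 2. Markers of dividing cells summed to 143.5 to 212 CPM in mutants and 145 and 187 CPM in control, with 0 of 14 called. In double mutants 6 of the 14 had an unadjusted p under 0.05 in limma (16.1% of all genes). Log2 fold changes were above 0 in 11, 4 and 2 of the 14 in single mutants, csf1rb heterozygotes and double mutants. The medians were 0.16, -0.17 and -0.25 in the same order. Of 16 neuron and 10 endothelium markers limma called 1 each lower in double mutants, map2 and cldn5b. Log2 fold changes there were above 0 in 7 of 16 neuron markers (median -0.03) and 2 of 10 endothelium markers (median -0.42). The part of all these in the levels of ribosomal protein genes was not tested.

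By the RefSeq gene table of GRCz12tu (the reads were mapped to GRCz10), 81 members could be placed, on 24 chromosomes. Of these 2, rpl26 and rpl39, share a chromosome with csf1ra, and 6 share one with csf1rb, namely rpl17, rpl23a, rpl28, rpl35, rpl37 and rps14. rpl31 and rps29 lie on neither.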

How the data were processed

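Whole-brain RNA of 11 zebrafish libraries was sequenced as 50-nucleotide single-end reads after cDNA pre-amplification, per the labels' protocols. The submitters' processing notes name HISAT2, edgeR and GRCz10, without versions. How reads were counted, by strand or not, and on which annotation is not stated in the labels. Deposited by the authors were signal values, CPM per gene divided by a scaling factor per library (0.963 to 1.038, equal to recomputed TMM factors), from which 100% of values gave whole reads within 0.001 read. The deposited log2 fold changes and the authors' FDR (an adjusted p-value) were used only where named. The design text speaks of 3 controls, of which 2 are analysed here.

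Here limma (3.58.1, R 4.3.3) was fitted to log2(CPM + 1) of all 16536 genes and 4 genotypes with a mean-variance trend (11.4 residual degrees of freedom). P-values were adjusted by Benjamini-Hochberg over all genes, and a gene was called at an adjusted p under 0.05. The test was tried on simulated data first. Alternatives were edgeR (4.0.16, quasi-likelihood) and DESeq2 (1.42.0) on recovered reads, other scalings, pseudocounts and a filter on low values, the compared groups alone, replicate blocks, and each library left out.

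The members, lists and tests were chosen with earlier results of these data known. Members were named by rule: any called, the 8 largest and 8 smallest fold changes in each mutant, stalk proteins, rps27a, copies and members that are no subunits. Others (rps6, rps9, rps14, rps15, rps19 among them) were named for their role or after their values were seen. A few genes are not reported here. Levels were not compared between genes, since no transcript lengths were at hand. The residuals of same-numbered single mutant and csf1rb heterozygote libraries correlated at 0.368, 0.636 and 0.313. Correlations between libraries with different numbers were not computed, so these values cannot tell whether the numbers pair these 2 groups. The block changed no member's call between them. Fold changes understate those of low genes because of the pseudocount.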

Additional observations from a re-analysis of the deposited data

How the results depend on the processing

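Under all alternatives 0 ribosomal protein genes were called in 5 of the 6 comparisons. In double mutants against control 1, rpl31, was called with DESeq2 (log2 fold change 0.55), with only the 2 groups compared (0.56) and with the replicate block by title number (0.55), and 0 were called with any library left out. Its adjusted p ran from 0.0308 to 0.399 over the alternatives. The members' median over control kept its sign under all of these alternatives: with the replicate block by title it was 0.19, 0.14 and 0.16 in single mutants, csf1rb heterozygotes and double mutants, and by description number 0.12, 0.07 and 0.09. Without the 3 libraries numbered 2, a choice made after seeing the data, it was 0.10, 0.04 and 0.13. Within number 1, setting 1 library against 1 other, the members' median log2 difference from control was -0.01, -0.05 and 0.14 in the same order. Within number 3 it was 0.22, 0.13 and 0.12.

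Among the alternative values of single named members, 45 turned sign, with values from -0.13 to 0.10, and none of these was called. A further 688 kept both sign and call status, and 3 kept the sign but became called. In csf1rb heterozygotes, rps26l, rplp1 and rps24 were at 0.018, 0.023 and 0.030 with no scaling factor. With the title block rps26l, rps24, rps13 and rpl15 were at 0.025, 0.0037, -0.0074 and -0.0042. rps24 was at 0.0016 in edgeR, and rps13 at -0.00090 in DESeq2 and -4.2e-05 with a pseudocount of 0.1. By description block rps13 and rpl15 were at -0.080 and -0.070, and without the libraries numbered 2 at -0.12 and -0.13. In double mutants rplp1 was at 0.040 with no scaling factor, rps4x and rpl27 at -0.026 and -0.048 by description block, and rpl27 at -0.014 without number 2. In single mutants rps19bp1 and rps29 were at -0.038 and -0.0093 by description block, and rps29 at -0.024 without number 2. With each library left out, values in single mutants ran from -0.15 to 0.052 for rplp1, -0.094 to 0.14 for rps19bp1, -0.081 to 0.14 for rps8b and -0.024 to 0.17 for rps29. In csf1rb heterozygotes they ran from -0.17 to 0.10 for rps26l, -0.11 to 0.077 for rplp1, -0.12 to 0.083 for rps24, -0.12 to 0.12 for rps13 and -0.13 to 0.13 for rpl15. In double mutants they ran from -0.10 to 0.042 for rps26l, -0.030 to 0.019 for rplp1, -0.0022 to 0.049 for rps4x and -0.014 to 0.050 for rpl27. The cause was not tested. An unadjusted 95% interval of 0.30 on the log2 scale limits all of these.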
